A study of Homo sapiens with 4 samples.

Results

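SR proteins and heterogeneous nuclear ribonucleoproteins (hnRNPs) are the main families of proteins that decide which exons are kept when a transcript is spliced. Their genes were taken as the rows whose symbol is SRSF followed by a number, or HNRNP followed by letters and an optional number, with pseudogenes left out. The pattern found 36 of the 59050 genes counted, namely 12 SRSF genes and 24 HNRNP genes. HNRNPA2B1 is an hnRNP gene that the pattern does not match, so it is given with the related genes. RNA-seq of poly(A) RNA covered 4 libraries of cells labelled HepG2, a human line established from a liver tumor, in which DNA damage is known to activate p53. In 2 libraries the cells were untreated (0 h), and in the other 2 they had received doxorubicin, which damages DNA, at 1 µg/ml for 24 h. The untreated libraries carry nop53 in their titles, the treated ones carry p53 and the tag p53-miRNA, and the treatment protocol names only doxorubicin. The design text calls the replicates biological, and all 4 libraries come from a single cell line grown in the same medium.

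SR proteins bind exonic enhancers through RNA recognition motifs and recruit the spliceosome through domains rich in serine and arginine, which SRPK and CLK kinases phosphorylate. Many hnRNPs bind silencers in exons or introns and oppose them, so that the balance between both families sets the splicing of many exons. Many genes of both families keep their own level in check through poison exons, whose inclusion sends the transcript to nonsense-mediated decay.

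The libraries held between 27572740 and 36272180 counts, so that 3 counts correspond to between 0.0827 and 0.109 CPM (counts scaled to the library total). Untreated replicate 2 stood apart from the other 3 libraries. Across the 17479 genes tested, the median size of the difference between replicates, in either direction, was 0.87 for the untreated pair and 0.25 for the treated pair (log2 scale). The defining markers of liver were near 0 in every library. ALB had at most 3 counts, 7 of 14 liver genes were below 1 CPM in all 4 libraries, and the summed level of the 14 was 1.32 and 5.65 CPM untreated and 16.9 and 20.1 CPM after doxorubicin. These markers therefore do not bear out the label, and the identity of the cells is as labelled only. Of the liver genes, FGG had the most counts, at 0.17 and 0.10 CPM untreated and 9.76 and 14.0 CPM after doxorubicin. Summed levels of other marker lists ranged from 1183 to 1951 CPM for 8 squamous genes (KRT17 had the most counts, 5 were below 1 CPM throughout), and from 169.7 to 284.5 CPM for 8 fibroblast genes (LUM had the most, 3 below 1 CPM). They reached at most 5.61 CPM for 8 immune genes and 10.0 CPM for 6 endothelial genes. Over the 4 libraries together, CSF1R and CDH5 had the most counts in these lists. The highest immune sum was that of untreated replicate 2, where NKG7 had 3.01 CPM and CSF1R 1.35 CPM. Untreated replicate 2 was the highest library for the squamous and immune sums. The fibroblast sum was higher in both treated libraries and the endothelial sum lower, but the genes of each list did not move together. LUM had 65.4 and 49.3 CPM untreated and 135.5 and 162.6 CPM after doxorubicin. CDH5 had 8.52 and 3.29 CPM untreated and 1.46 and 0.943 CPM after doxorubicin. In the comparison of all 4 libraries below, 2 of 6 tested fibroblast genes were higher in treated cells and 4 lower. Of 4 tested endothelial genes, 1 was higher and 3 lower. The part of these differences in the results below was not tested.

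To ask whether the splicing factor genes responded to doxorubicin, the counts of treated and untreated cells were compared by the quasi-likelihood test of edgeR over all genes past a filter on low counts. A call required both an adjusted p-value under 0.05 and a change by 1 or more, up or down, on the log2 scale. Of the 36 genes, 31 passed the filter (11 SRSF and 20 HNRNP) and 0 were called, as were 0 of all 17479 genes tested (0%). In RNA from bulk cells, fewer cells of a type and less RNA per cell cannot be told apart. At an unadjusted p-value under 0.05 there were 0 of the 31 genes, against 4.39% of all genes tested, and the smallest adjusted p-value among the 31 was 0.773 (edgeR, Benjamini-Hochberg). By DESeq2, and by a likelihood ratio test in edgeR, 0 of the 31 were called as well, beside 90 and 64 of the 17479 genes tested. The fold changes were above 0 in 16 and below 0 in 15 of the 31 genes, with standard errors from 0.26 to 0.77 on the log2 scale. Their median was 0.21 for the SRSF genes and 0.04 for the HNRNP genes, beside 0.01 for all genes. None of the 31 reached a log2 fold change of 1 in size, which 19.2% of all genes tested did. SRSF12, HNRNPCL1 and HNRNPCL2 had at most 13 counts in any library, HNRNPCL3 and HNRNPCL4 had 0 counts in all 4, and these 5 genes were not tested.

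The SR proteins are described first. SRSF3 (chromosome 6, 36594353 to 36605600, GRCh38), the smallest SR protein and an adaptor for mRNA export, had 235.4 CPM in untreated replicate 1 and 40.8 CPM in untreated replicate 2. After doxorubicin it had 185.9 CPM in replicate 1 and 173.1 CPM in replicate 2, and pairs of values are given in this order of replicates throughout. SRSF1 (chromosome 17, 58000919 to 58007346), the founding member and a known oncoprotein, had 75.5 and 14.3 CPM untreated and 53.7 and 65.6 CPM after doxorubicin. In both genes the groups overlapped, because the treated libraries lay between the untreated ones, and untreated replicate 2 was the lowest. The log2 fold change was 0.22 ± 0.77 (SE, n = 2 per group) for SRSF3 and 0.24 ± 0.75 for SRSF1, so that both differences were smaller than their error. Without untreated replicate 2 they were -0.54 ± 0.22 and -0.49 ± 0.23.

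SRSF7 (chromosome 2, 38743599 to 38751494), which shares the export role of SRSF3, had 149.4 and 97.0 CPM untreated and 105.8 and 109.4 CPM after doxorubicin. SRSF2 (chromosome 17, 76734115 to 76737333), a component of nuclear speckles, had 100.1 and 55.9 CPM untreated and 73.7 and 80.7 CPM after doxorubicin. As in SRSF1 and SRSF3, the treated pair lay inside the range of the untreated pair, and the treated replicates were close to each other. The log2 fold change was -0.35 ± 0.35 for SRSF7 and -0.17 ± 0.40 for SRSF2.

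SRSF5 (chromosome 14, 69726900 to 69772005), a close relative of SRSF4 and SRSF6, ran the other way between the untreated libraries. It had 112.3 and 302.9 CPM untreated and 126.9 and 137.2 CPM after doxorubicin. Untreated replicate 2 was here the highest library, while the other 3 lay near each other. The log2 fold change was -0.81 ± 0.51, the lowest of the 31 genes, and it was 0.09 ± 0.23 without untreated replicate 2. SRSF4 had 107.5 and 50.6 CPM untreated and 104.4 and 114.8 CPM after doxorubicin. SRSF6 had 62.7 and 29.7 CPM untreated and 67.3 and 66.2 CPM after doxorubicin. Thus SRSF4 and SRSF6 were lowest in untreated replicate 2, in which their relative SRSF5 was highest. Their log2 fold changes were 0.31 ± 0.44 and 0.37 ± 0.45.

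Among the other SR proteins, SRSF9, which resembles SRSF1 in sequence, had 154.6 and 119.0 CPM untreated and 135.5 and 147.6 CPM after doxorubicin. SRSF10, a splicing repressor when dephosphorylated, had 97.7 and 56.1 CPM untreated and 94.5 and 104.8 CPM after doxorubicin. SRSF11 had 115.6 and 79.8 CPM untreated and 116.1 and 163.2 CPM after doxorubicin. In SRSF11 both treated libraries lay above both untreated ones, although doxorubicin replicate 1 was within 1 CPM of untreated replicate 1. SRSF8 was much alike in all libraries, with 19.99 and 23.1 CPM untreated and 20.6 and 20.2 CPM after doxorubicin. The log2 fold changes of these 4 genes ranged from -0.23 (SRSF8) to 0.35 (SRSF11). SRSF12 had 1, 13, 1 and 0 counts, in the order of untreated replicates 1 and 2 and doxorubicin replicates 1 and 2.

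**Figure D1:**
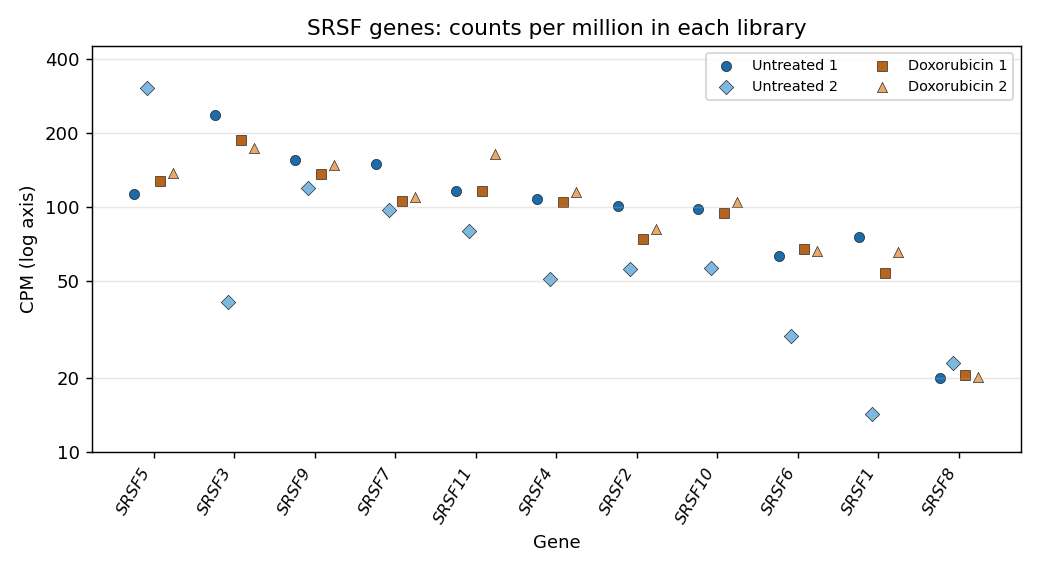
CPM (log axis) of the 11 tested SRSF genes, with a point for each of the 4 libraries. Untreated replicate 2 lies lowest for SRSF3 (40.8 CPM) and SRSF1 (14.3 CPM) and highest for SRSF5 (302.9 CPM). In each of these genes both doxorubicin libraries lie between the untreated ones, for SRSF3 at 185.9 and 173.1 CPM beside 235.4 CPM in untreated replicate 1.

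The make-up of the SRSF transcripts therefore differed in untreated replicate 2. Of all SRSF counts, SRSF5 took 9.12% in untreated replicate 1, 34.8% in untreated replicate 2 and 11.7% and 11.6% after doxorubicin. SRSF3 took 19.1% and 4.70% untreated and 17.2% and 14.6% after doxorubicin. The count of SRSF5 was 1.49 and 21.1 times that of SRSF1 untreated and 2.37 and 2.09 times after doxorubicin. These ratios are taken within a library and do not depend on the scaling between libraries. The summed SRSF level was 1231 and 869.6 CPM untreated and 1084 and 1183 CPM after doxorubicin, so the groups overlapped in the total as well.

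**Figure D2:**
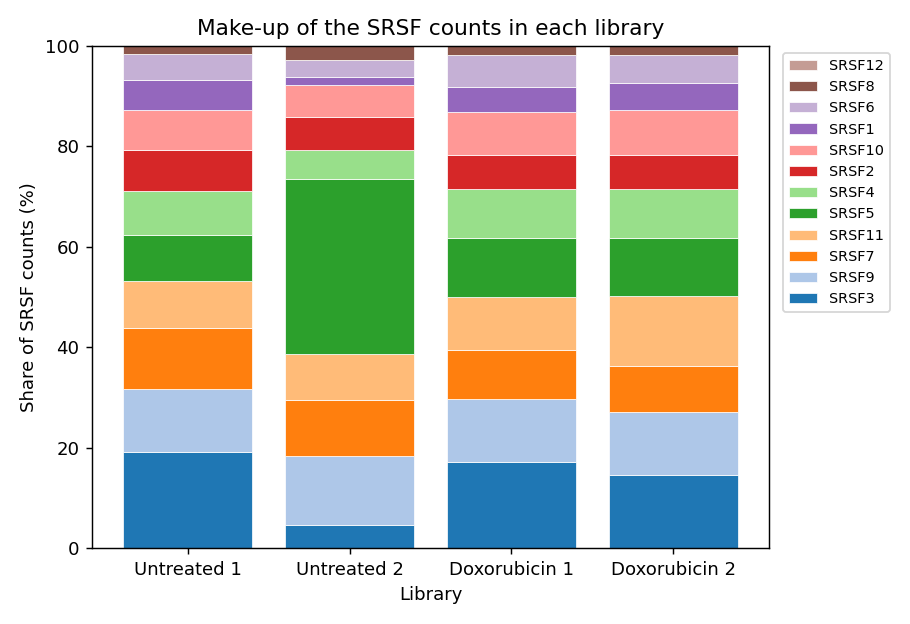
Share of each SRSF gene in the summed SRSF counts (%), with a stacked bar for each library. SRSF5 makes up 34.8% in untreated replicate 2 and between 9.12% and 11.7% in the other 3 libraries.

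The promoters of 4 genes are shown. SRSF3 and SRSF4 were low and SRSF5 high in untreated replicate 2, and SRSF4 and HNRNPC are the genes whose window holds a p53 decamer. They are the 250 bases before the RefSeq start (GRCh38.p14), on the strand of the gene, and 33 of the 36 genes had such a window. Capitals mark any match on either strand to the TATA box (TATAAA), the CCAAT box (CCAAT), the GC box (GGGCGG), the CHR element (TTTGAA) or the p53 decamer consensus.
SRSF3, chr6:36594112-36594361 (plus strand): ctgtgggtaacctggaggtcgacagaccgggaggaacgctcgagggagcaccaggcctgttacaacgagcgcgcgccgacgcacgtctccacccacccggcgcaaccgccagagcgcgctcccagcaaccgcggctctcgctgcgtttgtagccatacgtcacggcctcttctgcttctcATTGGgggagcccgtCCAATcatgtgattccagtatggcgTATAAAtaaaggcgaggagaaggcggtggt
SRSF5, chr14:69766892-69767141 (plus strand): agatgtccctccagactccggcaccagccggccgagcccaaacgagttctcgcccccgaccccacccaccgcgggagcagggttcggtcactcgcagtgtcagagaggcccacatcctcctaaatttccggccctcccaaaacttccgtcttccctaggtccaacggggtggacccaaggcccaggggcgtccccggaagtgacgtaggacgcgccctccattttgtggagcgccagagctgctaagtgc
SRSF4, chr1:29181901-29182150 (minus strand): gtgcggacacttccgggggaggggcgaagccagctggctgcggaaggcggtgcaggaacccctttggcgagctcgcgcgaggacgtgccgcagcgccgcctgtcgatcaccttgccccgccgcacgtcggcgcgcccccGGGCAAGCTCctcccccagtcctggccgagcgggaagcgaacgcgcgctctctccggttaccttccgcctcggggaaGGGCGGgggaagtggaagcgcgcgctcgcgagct
HNRNPC, chr14:21269443-21269692 (minus strand): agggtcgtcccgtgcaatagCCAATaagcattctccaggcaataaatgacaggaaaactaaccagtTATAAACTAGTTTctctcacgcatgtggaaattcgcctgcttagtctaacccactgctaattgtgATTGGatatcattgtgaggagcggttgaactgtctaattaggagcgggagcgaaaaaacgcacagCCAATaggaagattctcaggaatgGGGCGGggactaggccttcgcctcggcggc
SRSF3 thus held a TATA box and a pair of CCAAT boxes, and the window of SRSF5 held no match to the 5 motifs. In HNRNPC the capitals of the TATA box and the p53 decamer overlap. The p53 decamer was found in 2 of the 33 windows (6.06%), beside 5.53% of 27305 gene windows of the same length. CCAAT was found in 18 (54.5%, beside 33% of all), in 2 of 11 SRSF windows and in 16 of 22 HNRNP windows. GGGCGG was found in 20 (60.6%, beside 42.3%), TATAAA in 6 (18.2%, beside 11.1%) and TTTGAA in 3 (9.09%, beside 13.6%). Where a gene had several windows, the one nearest the start of the canonical transcript was used for the 33 genes. For all genes the first listed window was used, so the shares beside each other follow unlike rules. The window of HNRNPA1L2, which holds a GC box, lies 24906 bases from that start. A match describes these letters in this window and no binding.

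The hnRNP genes of the A/B and D groups comprised genes low in untreated replicate 2 and genes high in it. HNRNPA1 (chromosome 12, 54280193 to 54287088), the classical antagonist of SRSF1 at exons, had 902.0 and 227.9 CPM untreated and 829.4 and 825.0 CPM after doxorubicin. HNRNPA3 had 397.7 and 204.1 CPM untreated and 369.5 and 427.0 CPM after doxorubicin. Both were lowest in untreated replicate 2, and the treated replicates of HNRNPA1 were nearly equal. Their log2 fold changes were 0.39 ± 0.63 and 0.24 ± 0.39. HNRNPD (chromosome 4, 82352498 to 82374503), which binds AU-rich elements and is also known as AUF1, had 270.7 and 91.5 CPM untreated and 242.2 and 246.7 CPM after doxorubicin. HNRNPDL, its relative on the same chromosome, had 135.3 and 39.2 CPM untreated and 118.9 and 132.1 CPM after doxorubicin. The log2 fold change was 0.27 ± 0.54 for HNRNPD and 0.36 ± 0.60 for HNRNPDL, and the ratio of HNRNPDL to HNRNPD counts stayed between 0.43 and 0.54 in the 4 libraries.

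HNRNPA0 (chromosome 5, 137745651 to 137754363), which binds AU-rich elements too, had 261.7 and 396.9 CPM untreated and 231.5 and 202.6 CPM after doxorubicin. HNRNPAB (chromosome 5, 178204533 to 178211163) had 518.1 and 695.3 CPM untreated and 416.3 and 417.9 CPM after doxorubicin. In both genes the treated libraries lay below both untreated libraries, of which replicate 2 was the higher. The log2 fold change was -0.75 ± 0.34 for HNRNPA0 and -0.70 ± 0.29 for HNRNPAB (adjusted p-value 0.773 for both, edgeR, Benjamini-Hochberg), and without untreated replicate 2 it was -0.41 ± 0.22 and -0.46 ± 0.21. The count of HNRNPAB was 1.91 and 7.6 times that of HNRNPD untreated and 1.72 and 1.69 times after doxorubicin.

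Of the hnRNPs that package nascent transcripts or bind a given kind of sequence, HNRNPC, which binds uridine tracts, had 719.5 and 621.9 CPM untreated and 536.4 and 589.0 CPM after doxorubicin. HNRNPM, which binds sequences rich in G and U, had 603.6 and 545.6 CPM untreated and 461.7 and 468.1 CPM after doxorubicin. HNRNPF, which binds G tracts, had 329.0 and 362.1 CPM untreated and 260.8 and 273.9 CPM after doxorubicin. These 3 genes also had both treated libraries below both untreated ones, with log2 fold changes of -0.41 ± 0.27, -0.46 ± 0.26 and -0.53 ± 0.27. Together with HNRNPA0 and HNRNPAB they made 5 of 31 genes without overlap on the lower side, beside 11.5% of all genes tested. On the higher side there were 4 (SRSF6, SRSF11, HNRNPLL and HNRNPUL2), beside 30.3% of all genes tested. Both counts and both shares were made on CPM by library totals. They were not made with the TMM scaling between libraries that the fold changes use, and may differ there.

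The remaining G-tract binders HNRNPH1, HNRNPH2 and HNRNPH3 had log2 fold changes of -0.11 ± 0.30, 0.08 ± 0.33 and 0.20 ± 0.34. HNRNPH2 had 63.1 and 69.3 CPM untreated and 67.8 and 88.7 CPM after doxorubicin, and HNRNPH3 had 219.2 and 140.9 CPM and 212.0 and 249.8 CPM. HNRNPH1 had 396.1 and 289.0 CPM untreated and 341.0 and 365.6 CPM after doxorubicin. Untreated replicate 2 was thus the lowest library for HNRNPH1 and HNRNPH3 and not for HNRNPH2. HNRNPK, which binds C-rich sequences, had 649.6 and 482.9 CPM untreated and 561.7 and 617.1 CPM after doxorubicin. HNRNPL, which binds CA repeats, had 274.5 and 195.0 CPM untreated and 247.0 and 275.8 CPM after doxorubicin. In all of these the groups overlapped and the fold change was smaller than its standard error. HNRNPLL, the relative of HNRNPL known from lymphocytes, had 48.3 and 40.3 CPM untreated and 53.1 and 66.8 CPM after doxorubicin, with a log2 fold change of 0.27 ± 0.34. HNRNPR, which is related to SYNCRIP, had 253.9 and 78.9 CPM untreated and 203.5 and 237.5 CPM after doxorubicin. HNRNPU, a scaffold protein that ties RNA to chromatin, had 750.1 and 643.0 CPM untreated and 642.6 and 679.0 CPM after doxorubicin. HNRNPR was more than 2-fold lower in untreated replicate 2 than in any other library, whereas the libraries of HNRNPU were close. The log2 fold change was 0.24 ± 0.57 for HNRNPR and -0.23 ± 0.26 for HNRNPU. The relatives of HNRNPU, HNRNPUL1 and HNRNPUL2, had log2 fold changes of -0.35 ± 0.29 and 0.48 ± 0.44. HNRNPUL1 had 452.9 and 356.3 CPM untreated and 366.2 and 341.0 CPM after doxorubicin. HNRNPUL2 had the highest fold change of the 31 genes, at 24.3 and 14.0 CPM untreated and 28.6 and 31.1 CPM after doxorubicin, and its value was 0.15 ± 0.26 without untreated replicate 2, below that of HNRNPLL (0.16).

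**Figure D3:**
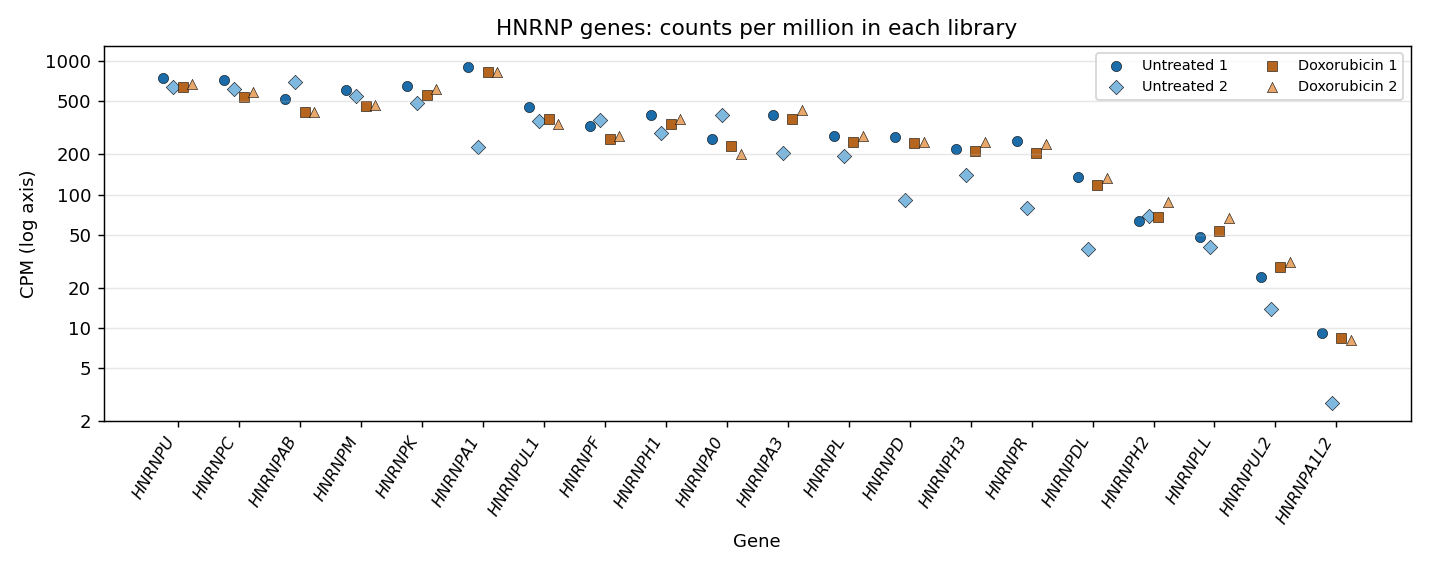
CPM (log axis) of the 20 tested HNRNP genes, with a point for each of the 4 libraries. HNRNPA1 is at 902.0 CPM in untreated replicate 1 and at 227.9 CPM in untreated replicate 2, and HNRNPA0 and HNRNPAB are highest in untreated replicate 2.

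Compared per length of the canonical transcript, the highest levels were those of hnRNP genes. In untreated replicate 1 the highest level was that of HNRNPAB (292.7 CPM per kb), followed by HNRNPM (243.7), HNRNPA1 (240.9), HNRNPC (227.3) and HNRNPK (224.9). The neighbours HNRNPM, HNRNPA1, HNRNPC and HNRNPK differed by less than the gap between the untreated replicates of any of them. Among the SR genes SRSF9 was highest in that library (134.2 CPM per kb), and in untreated replicate 2 SRSF5 was highest (202.5 CPM per kb). The 24 HNRNP genes took 0.728% and 0.550% of all counts untreated and 0.620% and 0.654% after doxorubicin.

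The untreated replicates differed more from each other than the treated replicates did. The median size of the difference between replicates on the log2 scale (TMM-scaled CPM) was 0.63 for the untreated pair and 0.0703 for the treated pair over the 31 genes. The largest in treated cells was 0.40, in SRSF11. By CPM on library totals, untreated replicate 2 was the lowest of the 4 libraries in 21 of the 31 genes, beside 45% of all genes tested. It was the highest in 5 (SRSF5, SRSF8, HNRNPA0, HNRNPAB and HNRNPF), beside 36.6%. At least 2-fold below untreated replicate 1 were 9 genes, beside 21.8% of all genes tested. These were SRSF3 (-2.53 on the log2 scale), SRSF1 (-2.40), HNRNPA1 (-1.99), HNRNPDL (-1.79), HNRNPA1L2 (-1.72), HNRNPR (-1.69), HNRNPD (-1.57), SRSF4 (-1.09) and SRSF6 (-1.08). At least 2-fold above was SRSF5 alone (1.42), beside 22.6% of all genes tested. The difference of libraries in the same group carries no test of a treatment.

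**Figure D4:**
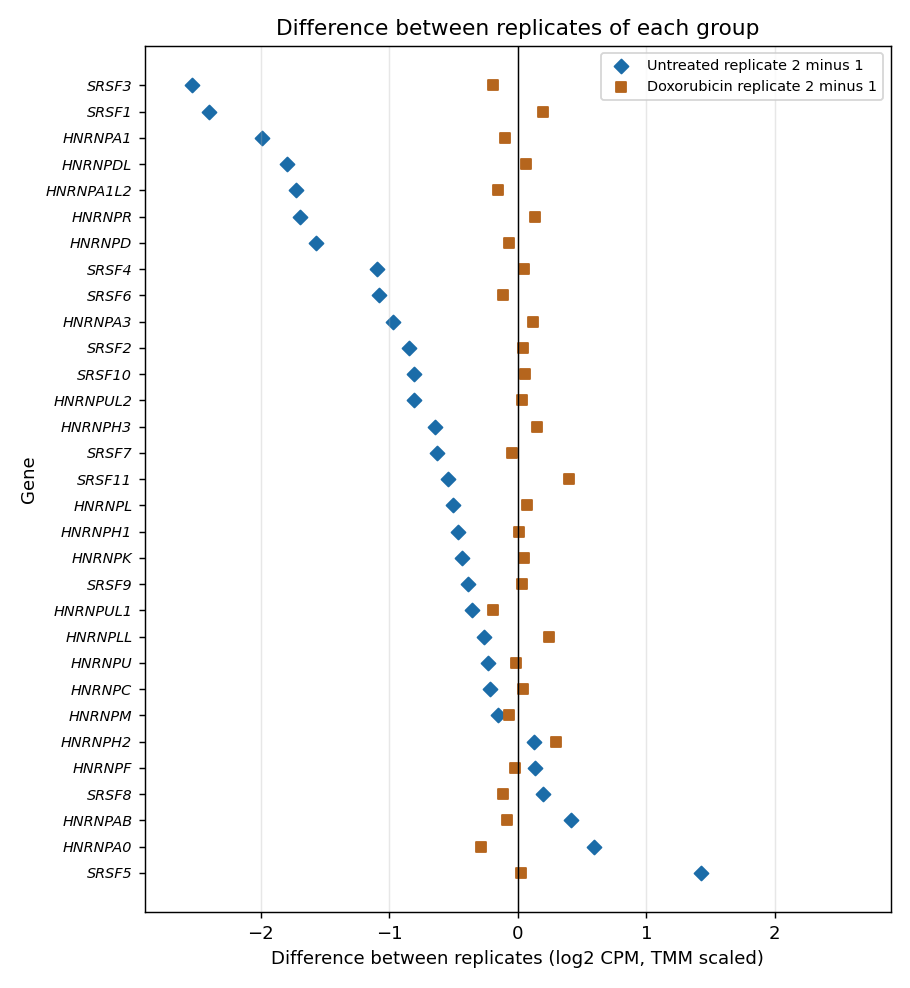
Difference between replicate 2 and replicate 1 (log2, TMM-scaled CPM) for each of the 31 genes in untreated cells (diamonds) and doxorubicin-treated cells (squares). The untreated differences run from -2.53 (SRSF3) to 1.42 (SRSF5), and no difference between treated replicates exceeds 0.40 in size.

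To see the comparison without the library that stood apart, untreated replicate 1 alone was set against both treated libraries. The single untreated library is then assumed to vary like the treated pair. Of the 31 genes, 26 were below 0 and 5 above 0, beside 45.7% of all genes below 0 among the 18356 tested. The median log2 fold change was -0.12 for the SRSF genes and -0.30 for the HNRNP genes, and 0.05 for all genes. In 25 of the 31 both treated libraries lay below untreated replicate 1 (TMM-scaled), beside 35.8% of all genes, and in 3 both lay above, beside 41.2%. Again 0 of the 31 were called, beside 4.44% of all genes tested, and 0 had an adjusted p-value under 0.05, beside 6.34%. SRSF7 had the largest difference, -0.62 ± 0.22 (adjusted p-value 0.0709, edgeR quasi-likelihood test, Benjamini-Hochberg), and its adjusted p-value was 0.0382 by the likelihood ratio test of edgeR. At an unadjusted p-value under 0.05, 9 genes were lower in treated cells (SRSF1, SRSF2, SRSF3, SRSF7, HNRNPAB, HNRNPC, HNRNPF, HNRNPM and HNRNPUL1), beside 6.9% of all genes lower, and 0 were higher, beside 12.2%. The log2 fold changes of these 9 ranged from -0.62 to -0.45. Scaled by library totals alone, 20 of the 31 genes were below 0 and 11 above 0, 2 had an unadjusted p-value under 0.05, and the median of all genes moved to 0.20.

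When untreated replicate 1 was left out instead, the picture turned. The single untreated library, here the one that stood apart, is again assumed to vary like the treated pair. Untreated replicate 2 alone against the treated libraries gave 10 genes called as higher in treated cells, beside 21.2% of 19606 genes tested, and 1 as lower, beside 23.2%. The higher ones were SRSF1, SRSF3, SRSF4, SRSF6, HNRNPA1, HNRNPA1L2, HNRNPD, HNRNPDL, HNRNPR and HNRNPUL2, with log2 fold changes from 1.006 (HNRNPUL2) to 2.05 (SRSF3), and the lower one was SRSF5 (-1.28). The direction of SRSF1, SRSF3, HNRNPA1, HNRNPD, HNRNPDL and HNRNPR thus depended on which untreated library was used.

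**Figure D5:**
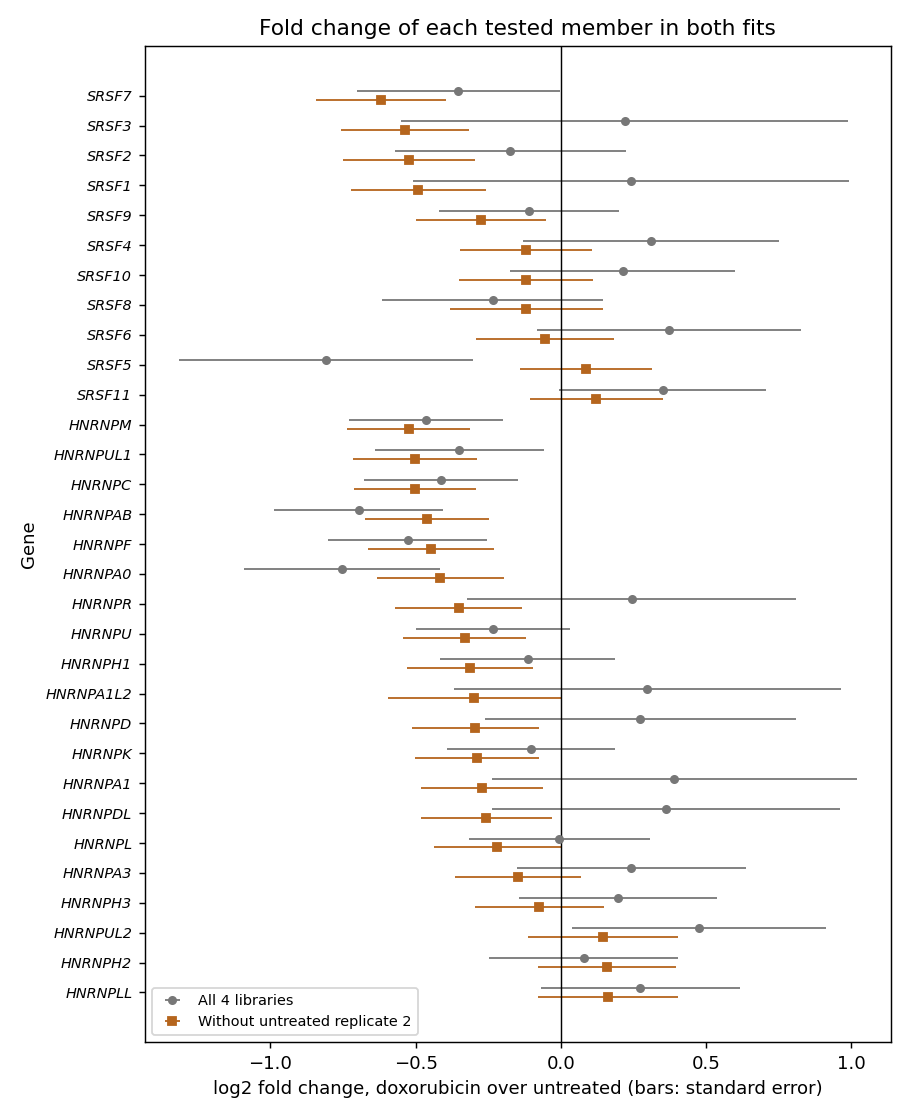
Log2 fold change (doxorubicin over untreated, bars show the standard error) of the 31 genes with all 4 libraries (circles) and without untreated replicate 2 (squares). Without untreated replicate 2, 26 of 31 genes lie below 0, and the values of SRSF3 and SRSF1 move from 0.22 and 0.24 to -0.54 and -0.49.

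The counts of some of these genes are uncertain because of shared sequence. Where genes overlap, how reads on the shared bases were counted is uncertain, and no strand setting is stated for the counting. The overlaps given here are those of GENCODE release 44 on either strand, while the counting used release 31. In the annotation 14 of the 36 genes share exon bases with another gene, over 10% of them in 10 genes, among them HNRNPA3 (59.5%, with NFE2L2 and MIR4444-1), HNRNPUL2 (45.9%, with the readthrough HNRNPUL2-BSCL2) and SRSF9 (38.1%, with GATC). HNRNPA1L2 is an intronless copy of HNRNPA1 that lies wholly inside another annotated gene, and its counts were between 0.985% and 1.22% of those of HNRNPA1 in every library. The 75 rows of HNRNPA1 pseudogenes held between 4.73% and 6.82% of the HNRNPA1 counts. In the 4 libraries HNRNPA1L2 had 9.24 and 2.77 CPM untreated and 8.48 and 8.12 CPM after doxorubicin, the same order as HNRNPA1. Transcripts sent to nonsense-mediated decay are annotated for 25 of the 36 genes, 90 in all (GENCODE release 44). Counts per gene do not separate them from productive transcripts. Of the 90, 0 belong to the basic set of that release, and the deposited counts were made on the basic set of release 31, so that exons found only in such transcripts may not have been counted.

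Related genes were taken from lists, and 0 genes of any list were called with all 4 libraries (edgeR quasi-likelihood test). Of the core spliceosome genes, U2AF2 had an unadjusted p-value under 0.05 and was named after its values were seen (log2 fold change -0.87 ± 0.30). Of 14 tested hnRNP proteins with other symbols, 7 were above and 7 below 0, with the highest value in PTBP3 (0.55 ± 0.61). Without untreated replicate 2, 12 of the 14 were below 0. HNRNPA2B1, the partner of HNRNPA1 in hnRNP particles, had 1129 and 557.2 CPM untreated and 849.2 and 973.6 CPM after doxorubicin. Its log2 fold change was -0.05 ± 0.39, and -0.46 ± 0.21 without untreated replicate 2. Of 20 SR-related proteins 10 were above and 10 below 0, from LUC7L (-0.77 ± 0.37) to SCAF11 (0.74 ± 0.53, and 0.21 without untreated replicate 2). Without that library 14 of the 20 were below 0.

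Among 11 tested kinases of SR proteins and importins of SR and hnRNP proteins, 7 were above and 4 below 0. The extremes were CLK3 (-0.55 ± 0.41) and DYRK1A (0.62 ± 0.52). Without untreated replicate 2 these were -0.0247 and 0.13, and 8 of the 11 genes were below 0. CLK1, which phosphorylates SR proteins in the nucleus, had 25.3 and 54.8 CPM untreated and 41.1 and 66.8 CPM after doxorubicin. Its log2 fold change was 0.26 ± 0.50 with all libraries, and 0.94 ± 0.26 without untreated replicate 2 (adjusted p-value 0.00846, edgeR quasi-likelihood test, Benjamini-Hochberg), short of the fold needed for a call. Of the other related genes, EFTUD2 of the core spliceosome, named after its values were seen, also passed the adjusted threshold in that comparison (-0.65 ± 0.22). Its value was -0.49 with all libraries and -0.22 without untreated replicate 1. SRPK1, the cytoplasmic kinase, had 103.2 and 60.7 CPM untreated and 91.7 and 126.2 CPM after doxorubicin, with a log2 fold change of 0.24 ± 0.39. Of 39 tested core spliceosome genes 6 were above and 33 below 0 with a median of -0.31, beside 49.2% of all genes below 0. The extremes were DHX38 (-1.13 ± 0.53, and -0.19 without untreated replicate 2) and PRPF31 (0.31 ± 0.62, at most 2.61 CPM). Without untreated replicate 2, 37 of 40 core genes were below 0 with a median of -0.32. Of 10 factors of nonsense-mediated decay 5 were above and 5 below 0, from SMG8 (-1.30 ± 0.59) to SMG6 (0.69 ± 0.62). Without untreated replicate 2 these were -0.23 for SMG8 and 0.0796 for SMG6, and 6 of the 10 factors were below 0.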

How the data were processed

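RNA was measured in 4 libraries, and the authors deposited the number of reads on each gene as raw counts, without normalization. Per the labels and the methods, reads were mapped with HISAT2 and counted with HTSeq on hg38, and the file headers name GENCODE release 31 (basic). The layout of the deposited counts resembles the output of another counting program, featureCounts, so which program made them is uncertain. The strand setting of the counting is not given in the sources used here. CPM was computed on library totals. Fold changes came from edgeR 4.0.16 (R 4.3.3): filterByExpr, TMM scaling (factors 0.944, 0.951, 1.02 and 1.09), glmQLFit and glmQLFTest, prior count 0.125, Benjamini-Hochberg over all genes tested, with the study's thresholds (0.05 for the adjusted p-value, 1 for the size of the log2 change). The standard error (±) is the size of the log2 fold change divided by the square root of the test's F statistic. It is not the spread between replicates. The n is 2 per group, and intervals of counting error were not used. Positions, lengths and shared exons are those of GENCODE release 44 on GRCh38, and promoters are from RefSeq. The genes and lists were chosen with earlier results of these data known. Every gene of the pattern is named, and of each list the extremes, HNRNPA2B1, CLK1 and SRPK1, except for a list gene that is not reported here. Alternatives were DESeq2 1.42.0, the likelihood ratio test, RLE size factors, library size alone, other filters, a replicate block and leaving out each library. Replicate numbers are shared by the groups in the labels, but nothing says that they pair the libraries.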

Additional observations from a re-analysis of the deposited data

How the results depend on the processing

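With 2 libraries per group, of which the untreated pair differed widely, none of the differences seen here was called. The number of genes called moved from 0 (768 at an unadjusted p-value under 0.05) to 90 with DESeq2 and 64 with the likelihood ratio test, and ran from 0 to 8697 when a library was left out, including 815 for the 3 libraries other than untreated replicate 2. Among the 31 splicing factor genes it was 0 with every other test, scaling and filter, and ran from 0 to 11 when a library was left out, 11 without untreated replicate 1. Their medians (log2 fold change) then ran from -0.12 to 0.72 for the SRSF genes and from -0.30 to 0.27 for the HNRNP genes, the lowest without untreated replicate 2 and the highest without untreated replicate 1.

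Same-numbered libraries showed little joint deviation (correlation of deviations 0.0219 across genes, -0.0104 across the 31). With 2 libraries per group, and untreated replicate 2 standing apart, this cannot decide whether the libraries are paired. With the replicate number as a block, 20 genes of the whole table were called and 0 of the 31, the medians were 0.27 (SRSF) and 0.05 (HNRNP), and HNRNPL (0.0169) and HNRNPA2B1 (0.04) changed sign.

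In the comparison without untreated replicate 2, alternatives chosen after seeing the data moved the SRSF median of -0.12 to -0.16 (DESeq2 and RLE size factors), 0.0281 (library size alone), -0.21 (no filter) and -0.0833 (at least 1 CPM in 2 libraries). They moved the HNRNP median of -0.30 to -0.34, -0.33, -0.15, -0.31 and -0.26 with DESeq2, RLE, library size, no filter and the CPM filter. Library size alone moves the median of all genes to 0.17 with all libraries and turned HNRNPH1 (0.0432), HNRNPK (0.0566), SRSF9 (0.0481), HNRNPL (0.15) and HNRNPA2B1 (0.11), and no filter turned HNRNPL (0.0448). The cause was not tested.

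Leaving out a library in turn gave log2 fold changes of both signs, as the lowest and highest values, in SRSF1 (-0.49 and 1.97), SRSF2 (-0.52 and 0.38), SRSF3 (-0.54 and 2.05), SRSF4 (-0.12 and 1.03), SRSF5 (-1.28 and 0.0872), SRSF6 (-0.0545 and 1.08), SRSF7 (-0.62 and 0.0655), SRSF9 (-0.27 and 0.16) and SRSF10 (-0.12 and 0.74). The same held for HNRNPA1 (-0.27 and 1.78), HNRNPA1L2 (-0.30 and 1.499), HNRNPA2B1 (-0.46 and 0.62), HNRNPA3 (-0.15 and 0.88), HNRNPD (-0.29 and 1.33), HNRNPDL (-0.26 and 1.59), HNRNPH1 (-0.31 and 0.20), HNRNPH2 (-0.0306 and 0.26), HNRNPH3 (-0.0734 and 0.63), HNRNPK (-0.29 and 0.20), HNRNPL (-0.22 and 0.34) and HNRNPR (-0.35 and 1.40). It also held for CLK1 (-0.12 and 0.94), PRPF31 (-0.25 and 0.79), PTBP3 (-0.0285 and 1.68) and SRPK1 (-0.0732 and 0.75).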
